A study of Homo sapiens with 47 samples.

Results

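The comparison asks what the dCas9-p300(core) fusion does to chromatin when the gRNAs of Pool 3 guide it, relative to gRNAs for the IL1RN promoter. Its members are 8 of the 47 ChIP-seq libraries of the series, chosen by their labels: H3K27ac and RNA polymerase II (RNAPII) libraries of cells with dCas9-p300(core), 2 with Pool 3 gRNAs and 2 with IL1RN gRNAs for each antibody. All libraries came from Ishikawa cells, a human endometrial adenocarcinoma line, which were moved to hormone-depleted medium, transfected with a plasmid for the dCas9 fusion and plasmids for the gRNAs, and selected for both plasmids. Other libraries of the series carried dCas9-VP16(10x), or gRNAs of Pool 1, Pool 2 or an Adjacent pool, or were made with an HA antibody against the tag on dCas9. The control cells were not free of the activator: they held the same p300 fusion, directed to another locus. The cells were a transfected population without cloning, and nothing in the labels says that replicates came from separate cultures, so p-values measure only the spread between libraries, which may be technical.

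p300 is a histone acetyltransferase that adds acetyl groups to histone H3 lysine 27 (H3K27ac), a mark of active enhancers and promoters. Its catalytic core, fused to a Cas9 that binds DNA without cutting it, can be placed at a chosen site by gRNAs. RNAPII is found mostly at the start sites and along the bodies of transcribed genes and at lower levels at enhancers. The sites were estrogen receptor binding sites (ERBSs), enhancers that the receptor occupies when estrogen is present. Their genes are MMP17, a membrane-anchored matrix metalloproteinase, CISH, a suppressor of cytokine signalling, FHL2, a LIM-domain cofactor of transcription, and HES2, a basic helix-loop-helix repressor. IL1RN encodes the antagonist of the interleukin-1 receptor.

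The labels place MMP17-3 and CISH-3 in Pool 3. For the other genes they name FHL2-1 and HES2-2, and the paper's methods list FHL2-2 in Pool 1 and HES2-1 in Pool 2. Earlier work on these data instead read FHL2-2 and HES2-1 as the Pool 3 sites, after seeing H3K27ac values of these libraries. All 6 sites are therefore given, and the H3K27ac values at FHL2-2 and HES2-1 are a description, with no weight as a test. MMP17-3 (hg19, chr12:132344557-132346557) lies 32.6 kb downstream of the MMP17 start site, in an intron of a long noncoding RNA. CISH-3 (chr3:50575007-50577007) is intergenic and 73.2 kb downstream of the CISH start site. FHL2-2 (chr2:106025380-106027380) and FHL2-1 (chr2:106019419-106021419) lie 10.9 kb and 4.9 kb upstream of the main FHL2 start site, both in introns of longer FHL2 transcripts. HES2-1 (chr1:6482596-6484596) lies 3.6 kb upstream of HES2, and it lies in an intron of a HES2 transcript with its edge 240 bp from a start site of ESPN, which encodes an actin-bundling protein. HES2-2 (chr1:6496329-6498329) lies 17.4 kb upstream of HES2, within ESPN, and holds an ESPN start site.

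Each site was covered by 4 gRNAs. Those of the labelled sites MMP17-3 and CISH-3 and of FHL2-2 and HES2-1 are shown. Whether the gRNAs of FHL2-2 and HES2-1 were in Pool 3 is not settled. Those of the listed sites FHL2-1 and HES2-2 are not shown. Each 19-base spacer is written in lower case, 5′ to 3′, followed in capitals by the 3 bases next to it in hg19, the NGG motif (PAM) that Cas9 needs.
MMP17-3 gRNA 1: aacaaggcagcggagcggtGGG
MMP17-3 gRNA 2: ggatgcatgagcccggctcTGG
MMP17-3 gRNA 3: gagatccccagggcgtcctGGG
MMP17-3 gRNA 4: cagatcagagacactcgctGGG
CISH-3 gRNA 1: gaaacatgactccagaataCGG
CISH-3 gRNA 2: aagggcagagtgacctgcaAGG
CISH-3 gRNA 3: tctccccgaaagtggtcatAGG
CISH-3 gRNA 4: gtttgcttggctaggagagGGG
FHL2-2 gRNA 1: ctgcctgtgtgaatcagacTGG
FHL2-2 gRNA 2: ctctcctggcggagatgctAGG
FHL2-2 gRNA 3: attccagcgtacttggcacTGG
FHL2-2 gRNA 4: gagattactgtgcacactcAGG
HES2-1 gRNA 1: gcaacaggctcactgcggcTGG
HES2-1 gRNA 2: cctgtggccgctggaatctGGG
HES2-1 gRNA 3: gttggaaacccacctggctAGG
HES2-1 gRNA 4: catcacgcaggtcgccactAGG
The spans from the outermost gRNA bases are chr12:132345196-132345683 at MMP17-3 (488 bp), chr3:50575933-50576060 at CISH-3 (128 bp), chr2:106026236-106026494 at FHL2-2 (259 bp) and chr1:6483433-6483688 at HES2-1 (256 bp). All 24 spacers of the 6 sites had 1 exact match on the chromosome of their target, inside the site they are named for. A complete estrogen response element, GGTCA and TGACC separated by any 3 bases (a palindrome, so the same on both strands), was found in 2 of the 23 measured regions and in none of the 6 sites.

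The libraries were shallow in these regions and uneven. The H3K27ac libraries held 605 and 1477 reads in the 23 regions for Pool 3 and 1753 and 1157 for IL1RN, and their peak lists held 5599 and 1805 peaks for Pool 3 against 18664 and 4088 for IL1RN. The RNAPII libraries held 1824 and 2557 reads and 24112 and 26449 peaks for Pool 3, against 819 and 2910 reads and 18809 and 27078 peaks for IL1RN. Replicate 1 of both H3K27ac groups carried the number 15977 in its peak names and replicate 2 carried none, so replicate and number coincide in these 4 libraries, while all 4 RNAPII libraries carried 15977. The number is read here as a batch, although no source says what it stands for. Of 8 epithelial marker genes, 4 had an H3K27ac peak within 1 kb of a start site in all 4 libraries and all 8 had a RNAPII peak in all 4, whereas none of 7 markers of blood, liver, muscle, glial or islet cells had a peak of either antibody in any of them. The HA antibody, used on dCas9-p300(core) with the gRNAs of all ERBSs together, gave 17.4 and 27.3 at MMP17-3 and 10.3 and 9.82 at CISH-3, against 1.32 and 0.279 in 1 control library, which carried dCas9-VP16(10x) with IL1RN gRNAs. HA was 5.53 and 15 at FHL2-1 (control 0.558) and 4.21 and 9.46 at FHL2-2 (control 0.330). It was 15 and 27.5 at HES2-1 (control 3.55) and 0.789 and 3.04 at HES2-2 (control 0.431), the lowest of the 6 sites. These HA libraries of dCas9-p300(core) held 468 and 1083 reads in the 23 regions, with under 10 reads in 12 and 8 regions. Low HA values thus rest on few reads.

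H3K27ac was higher with Pool 3 gRNAs than in either control library at both labelled sites. In these bulk libraries, more cells carrying the mark and more mark per cell cannot be told apart. At MMP17-3 the normalized signal was 2.40 and 4.34 in the Pool 3 libraries and 0.534 and 0.691 in the control libraries, from 128, 241, 77 and 41 reads. The groups did not overlap, and the Pool 3 signal was 4.49 times the control in replicate 1 and 6.28 times in replicate 2. At CISH-3 the signal was 0.618 and 2.61 with Pool 3 and 0.0624 and 0.371 in the controls, from 33, 145, 9 and 22 reads. There too the groups were apart, with ratios of 9.91 and 7.04, and the lower Pool 3 library stood above the higher control library. Among all 10 H3K27ac libraries with dCas9-p300(core), the Pool 3 libraries were the highest and the second highest at MMP17-3 and at CISH-3, and the other 8 libraries lay between 0.398 and 0.852 at MMP17-3 and between 0.0181 and 0.375 at CISH-3.

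Of the sites of FHL2 and HES2, FHL2-2 and HES2-1 had the larger ratios. They were read as Pool 3 sites after seeing H3K27ac of these libraries, so this difference has no weight as a test. At FHL2-2 the Pool 3 libraries held 0.150 and 2.72 and the control libraries 0.0347 and 0.354, so the groups overlapped between replicates while the ratios within replicates were 4.32 and 7.68. The low Pool 3 value rests on 8 reads and the low control value on 5. At HES2-1 the signal was 2.21 and 5.15 with Pool 3 and 0.541 and 2.09 in the controls, with ratios of 4.09 and 2.46, and the lower Pool 3 library was just above the higher control library. HES2-1 also had the highest control signal of the 6 sites. At FHL2-1, which the labels list, Pool 3 gave 0.244 and 0.990 and the controls 0.146 and 0.775, with ratios of 1.67 and 1.28. At HES2-2 the values were 0.206 and 0.360 against 0.118 and 0.354, with ratios of 1.75 and 1.02. At these 2 sites the groups overlapped and another p300 group held the highest mean H3K27ac, Pool 2 at FHL2-1 (0.939 and 5.26) and Pool 1 at HES2-2 (0.619 and 1.65).

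**Figure D1:**
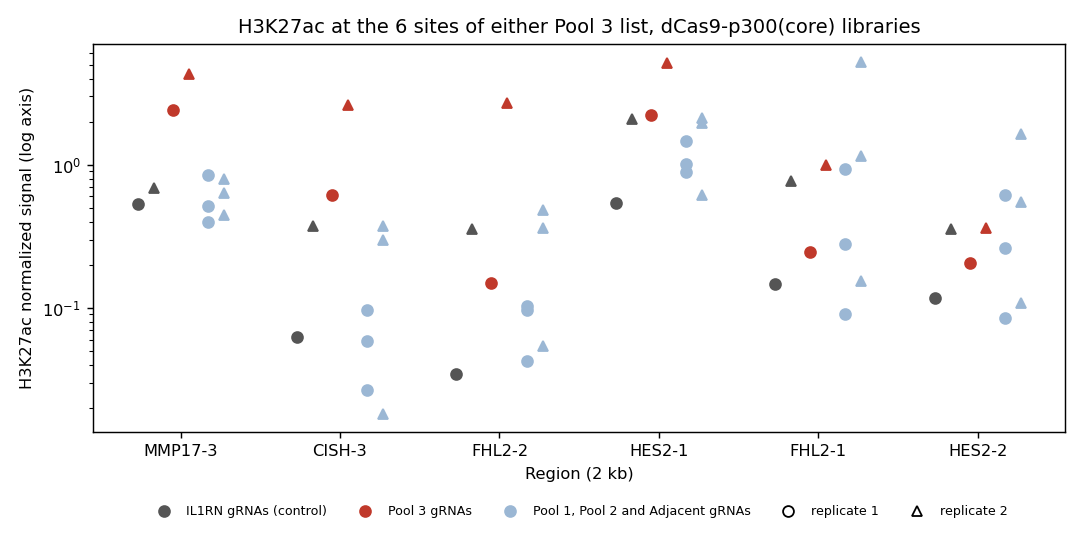
H3K27ac normalized signal (log axis) at the 6 sites of either Pool 3 list in the 10 dCas9-p300(core) libraries, with circles for replicate 1 and triangles for replicate 2. Pool 3 libraries (red) are above all other libraries at MMP17-3, CISH-3 and HES2-1, only their replicate 2 stands above them at FHL2-2, and they lie among the other libraries at FHL2-1 and HES2-2.

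Fitted with limma over all 20 H3K27ac libraries, none of the 23 regions was called increased or decreased at an adjusted p of 0.05 (0.0% of regions in each direction), and 2 regions (8.70%), MMP17-3 and CISH-3, had an unadjusted p below 0.05. The log2 change was 2.40 at MMP17-3 (SE 0.70, 95% interval 0.90 to 3.90, adjusted p = 0.0867) and 3.01 at CISH-3 (SE 1.20, 95% interval 0.46 to 5.56, adjusted p = 0.271). The call depended on how the number in the peak names was treated. With that number as a block, and the libraries without one taken as a single batch, which they may not be, the same changes had SEs of 0.57 and 0.69 and an adjusted p of 0.00364 at each site, and 3 regions were called increased (13.0%), MMP17-3, CISH-3 and FHL2-2, with 1 decreased (4.35%), the IL1RN promoter. In an exact permutation test of the 2 Pool 3 libraries against the other 8 p300 libraries, p was 0.0444 at each labelled site and also at HES2-1. That is the smallest p that this design allows. No region passed after adjustment over the 23 regions. None could have passed unless nearly all regions had reached that smallest p, so this outcome carries no weight.

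The largest decrease of H3K27ac among the 23 regions was at the locus that the control gRNAs target. At the IL1RN promoter (chr2:113874426-113876426) the signal was 0.0937 and 0.540 with Pool 3 and 0.423 and 5.37 in the control libraries, with ratios of 0.221 and 0.1005. The difference between the control replicates was greater there than the difference between the groups in replicate 1, and the log2 change of -2.72 (SE 1.78, adjusted p = 0.531) passed only with a block for that number (SE 0.83, adjusted p = 0.0197). At the promoters of the 4 target genes the ratios were 0.142 to 0.408 in replicate 1 and 0.712 to 1.84 in replicate 2. The values at the MMP17 promoter were 0.0750 and 0.396 with Pool 3 against 0.527 and 0.354, and at the HES2 promoter 0.506 and 1.76 against 1.83 and 0.960, so that the replicates pointed in opposite directions at both. The CISH promoter (0.394 and 0.630 against 0.964 and 0.657) and the FHL2 promoter (0.337 and 0.576 against 1.103 and 0.808) were below both control libraries. The control library of replicate 1 is also the one with 18664 peaks, and its part in these low ratios was not tested.

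Over all 23 regions, both Pool 3 libraries were above both control libraries at 4 (17.4%), of which 3 were among the 6 sites, and below both at 3 (13.0%). The fourth higher region was FHL2-3, an intergenic ERBS 123.9 kb upstream of FHL2, with 0.319 and 0.342 against 0.0277 and 0.253. Both were above all 8 other p300 libraries at 3 regions (13.0%), MMP17-3, CISH-3 and HES2-1. The median ratio of means was 4.15 at the 6 sites and 1.28 over all 23 regions, a count in which FHL2-2 and HES2-1 owe their place to values of these libraries. The ranges that follow leave out FHL2-2 and HES2-1, read as Pool 3 sites after seeing these values, and are a description only. In replicate 2 the ratios of the regions other than MMP17-3, CISH-3, FHL2-2 and HES2-1 ran from 0.1005 to 1.84. In replicate 1 they ran from 0.142 to 11.5, the highest at FHL2-3, with 4 reads behind its control value. CISH-B (8.11), FHL2-A (7.43) and CISH-1 (5.40) were also high there, from 2, 4 and 7 control reads. The median in replicate 1 was 2.50 over the 12 regions outside the 6 sites and the promoters. The replicate 1 ratios of MMP17-3, CISH-3, FHL2-2 and HES2-1 thus lay within the range of the other regions.

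**Figure D2:**
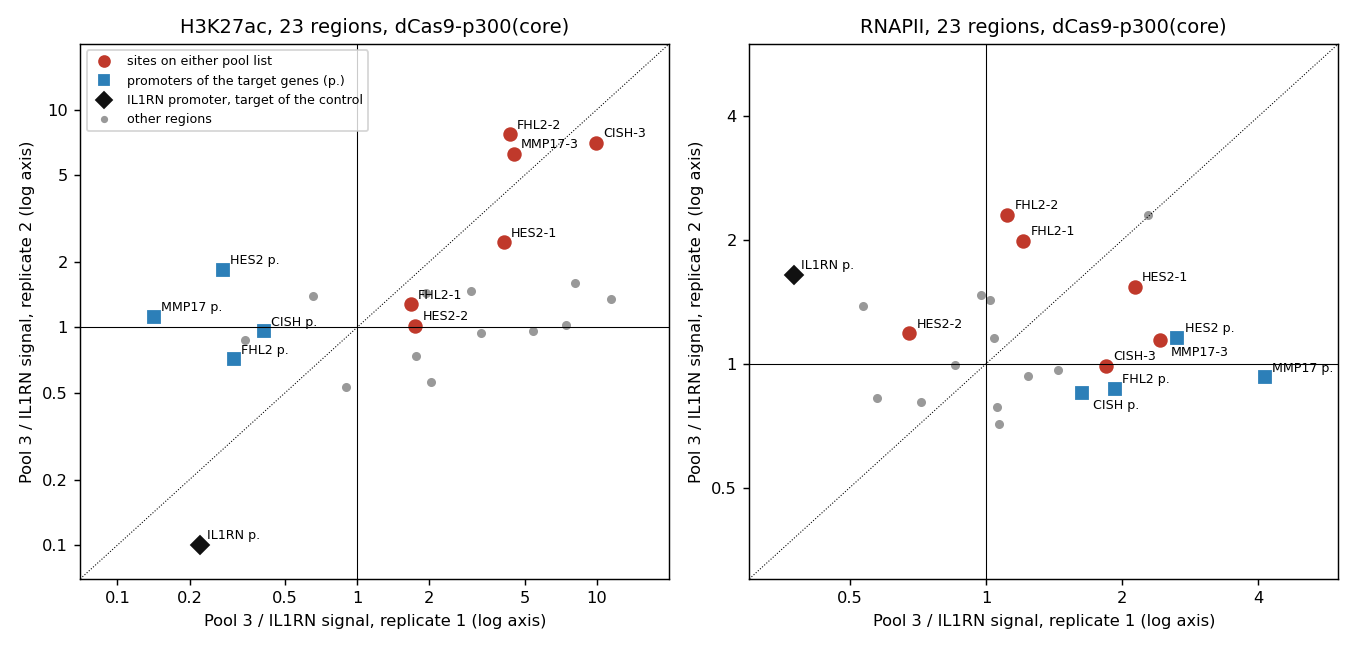
Ratio of normalized signal, Pool 3 over IL1RN, in replicate 1 (x, log axis) and replicate 2 (y, log axis) for the 23 regions, H3K27ac at left and RNAPII at right. In H3K27ac, MMP17-3, CISH-3, FHL2-2 and HES2-1 are above 1 in both replicates by more than 2-fold, the target promoters are below 1 in replicate 1 and the IL1RN promoter is low in both. In RNAPII no region apart from FHL2-A, with 1 and 2 reads in the control libraries, is above 2 in both.

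The dCas9-VP16(10x) libraries give a second, separate measurement of Pool 3 against IL1RN. With that construct H3K27ac at MMP17-3 was 3.64 and 4.397 with Pool 3 and 0.314 and 0.693 in the controls, and at CISH-3 it was 0.280 and 0.521 against 0, from no read, and 0.0287. Both sites passed in limma there (adjusted p = 0.00825 at each), and no other region did, a share of 8.70% of the 23. The VP16 Pool 3 library of replicate 1 held just 348 reads in the 23 regions, with under 10 reads in 17 of them. At CISH-3 the VP16 values rest on 7 and 100 reads with Pool 3 and 0 and 7 in the controls. The log2 change of 5.05 there thus depends on the small value added before taking logs. No alternative setting was fitted for this contrast. The test of the difference between constructs called none of the 23 regions (0.0%). For MMP17-3 the p300 change minus the VP16 change was -0.69 in log2 (SE 1.00, 95% interval -2.81 to 1.43), and for CISH-3 it was -2.03 (SE 1.70, 95% interval -5.64 to 1.57), so differences of several fold in either direction lie within the intervals. At HES2-1 the VP16 libraries also held more signal with Pool 3, 4.35 and 5.48 against 0.904 and 3.29, and at FHL2-2 they held 0.0799 and 1.20 against 0.0314 and 0.197, where the groups overlapped and the low Pool 3 value rests on 2 reads.

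RNAPII differed less than H3K27ac between the groups, and no difference passed. At MMP17-3 the RNAPII signal was 0.431 and 0.601 with Pool 3 and 0.178 and 0.525 in the control libraries, which overlap, and the log2 change was 0.73 (SE 0.50, 95% interval -0.33 to 1.78, adjusted p = 0.832). At CISH-3 the signal was 0.0893 and 0.0273 against 0.0485 and 0.0276, from 6 to 17 reads, with a log2 change of 0.41 (SE 0.81, 95% interval -1.32 to 2.14, adjusted p = 0.832). No region was called in either direction (0.0%), and none had an unadjusted p below 0.05 in limma. The exact permutation tests gave none after adjustment, but the design all but fixed that outcome in advance, as for H3K27ac. The interval at CISH-3 still includes a 4-fold increase. At HES2-1 RNAPII was 1.24 and 1.11 with Pool 3 and 0.582 and 0.718 in the controls, the clearest separation among the 6 sites, yet the log2 change of 0.85 (SE 0.51, adjusted p = 0.832) did not pass. Both Pool 3 libraries were above both controls at 2 of the 23 regions (8.70%), HES2-1 and FHL2-1. FHL2-1 held 0.0683 and 0.0865 against 0.0566 and 0.0434, from just 13 and 19 reads against 7 and 11. Both Pool 3 libraries were below both controls at none (0.0%), and above all 8 other p300 libraries at none (0.0%).

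At the promoters of the target genes, the RNAPII groups overlapped. With Pool 3 the CISH promoter held 1.16 and 1.35 (controls 0.711 and 1.58) and the HES2 promoter 1.20 and 1.95 (controls 0.452 and 1.68). The MMP17 promoter held 0.368 and 0.692 (controls 0.0889 and 0.746), and the FHL2 promoter 0.809 and 0.951 (controls 0.420 and 1.09). Within replicate 1 all 4 promoters were higher with Pool 3, by 1.63 to 4.14 times, and within replicate 2 the ratios were 0.851 to 1.16. The labels number these replicates but also title RNAPII Pool 3 replicate 2 as r1 and replicate 1 of both groups as backup. The pairing within RNAPII replicates is therefore uncertain. The control library of replicate 1, with 819 reads in the regions, was the lowest of the 10 p300 libraries at each of these promoters. Without it no target gene promoter was higher on average with Pool 3, and the log2 change at MMP17-3 was -0.045. Without the other control library, the log2 changes were 1.497 at MMP17-3, 2.45 at the MMP17 promoter and 1.75 at the HES2 promoter. Each of these fits assumes that the single control library left varies like the other groups. At the IL1RN promoter RNAPII was low in all 4 libraries (0.0578 and 0.0455 with Pool 3, 0.154 and 0.0276 in the controls) and none had a RNAPII peak there. RNAPII peaks at MMP17-3 were called in replicate 2 of both groups (10.4 with Pool 3 and 11.7 in the control), and none of the 4 libraries had one at CISH-3, FHL2-2, FHL2-1 or HES2-2. At HES2-1 the strongest RNAPII peak of each Pool 3 library had its summit inside the gRNA span (7.51 and 10.51). The control library of replicate 1 had no peak there and that of replicate 2 had 2. The stronger of these (74.1) had its summit 1253 bp past the gRNAs, beyond the edge of the site on the side of ESPN. The summit of the weaker was not examined, so a difference in summits between the groups is not established. Summits inside the gRNA span were also found in both dCas9-VP16(10x) libraries with IL1RN gRNAs (14.4 and 14.6).

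**Figure D3:**
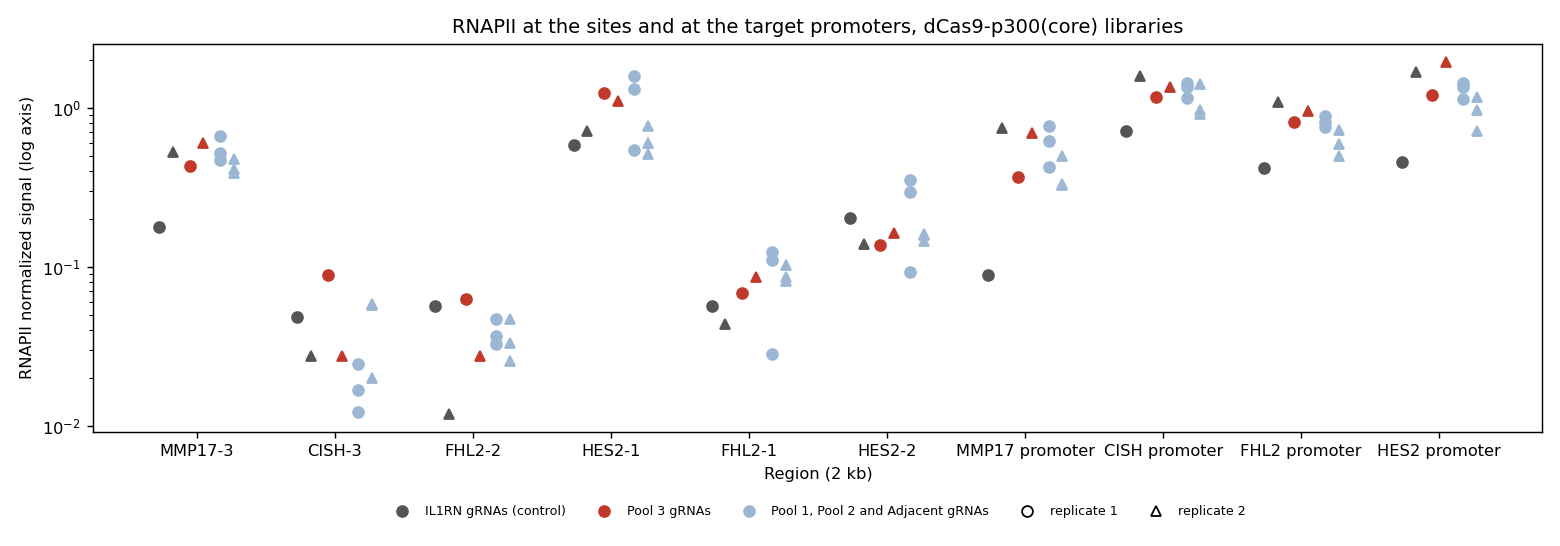
RNAPII normalized signal (log axis) at the 6 sites and the promoters of the 4 target genes in the 10 dCas9-p300(core) libraries, with circles for replicate 1 and triangles for replicate 2. The IL1RN control library of replicate 1 is the lowest point at MMP17-3 and at each promoter, while Pool 3 libraries lie within the range of the others at most regions.

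H3K27ac peaks were called at 4 of the 6 sites in at least 1 Pool 3 library. At MMP17-3 both Pool 3 libraries had a peak (fold enrichment over background 8.68 and 7.94), as did the control library of replicate 1 (6.63). The summit in replicate 2 fell inside the gRNA span and that in replicate 1 lay 324 bp beyond it, and the control summit was also inside the span. MMP17-3 also had a peak in 1 of the 6 other p300 libraries and in 8 of the 10 dCas9-VP16(10x) libraries. Replicate 2 of VP16 with IL1RN gRNAs was among these (9.31). At CISH-3 the Pool 3 library of replicate 2 had a peak (13.5) with its summit 107 bp from the gRNAs, and at FHL2-2 the same library had one (7.95) with its summit 219 bp away. Of the 20 H3K27ac libraries, each of these sites had a peak in just 1 other, the dCas9-VP16(10x) Pool 3 library of replicate 2 (13.1 at CISH-3 and 13.5 at FHL2-2). FHL2-1 and HES2-2 had no peak in any of the 4 libraries. At the IL1RN promoter the control library of replicate 2 had peaks, the strongest at 19.8, and neither Pool 3 library had one.

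Across the genome, the peaks of the 4 H3K27ac libraries merged into 21523 regions, of which 2 (0.00929%) had a peak in both Pool 3 libraries and in neither control library. The stronger, chr1:6482612-6483571, with fold enrichments of 10.4 and 16.7, is at HES2-1 and 1159 bp from the nearest HES2 start site. It had a peak in no other p300 library but in 9 of the 10 dCas9-VP16(10x) libraries, IL1RN gRNAs included, and a control library had a separate peak in the same 2-kb site (6.95), with its summit 569 bp past the gRNAs, while the Pool 3 summits lay 619 and 116 bp before them. The other, chr6:133508361-133508959 (10.7 and 6.68), is 52693 bp from EYA4, a transcriptional cofactor with phosphatase activity, and had a peak in 4 of 6 other p300 and 9 of 10 VP16 libraries. No other such region lay within 100 kb of a site or of the start site of a target gene, and none had its only further peaks in the VP16 Pool 3 libraries.

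The reverse pattern, a peak in both control libraries and in neither Pool 3 library, was found at 664 regions (3.09%), and 821 regions had a peak in all 4. Of the 664, 87.2% were within 1 kb of a start site, against 72.5% of all merged regions. The 5 with the highest enrichment were at or near the start sites of CCDC102A, TRAM2, BHLHE40, MSX1 and TRIO. BHLHE40 encodes a transcriptional repressor of the circadian clock and MSX1 a homeobox factor. Their enrichments were 103 to 117 in the control library of replicate 1 and 7.95 to 14.6 in that of replicate 2. Each of the 5 had peaks in 12 to 15 of the other 16 H3K27ac libraries, and all 664 had one in some other library. The IL1RN promoter was not among the 664, since the control library of replicate 1 had no peak there. Set against the same 2 control libraries, regions with a peak in both pool libraries and neither control numbered 299 for Pool 1, 173 for Pool 2 and 326 for Adjacent, and those of the reverse pattern 328, 191 and 97. The lists differ in length, and with the same number of the strongest peaks taken from each of the 4 libraries the 2 and 664 regions became 61 and 107, with none of the 61 at the 6 sites.

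RNAPII peaks were shared to a greater extent. The 4 lists merged into 33936 regions, of which 10735 had a peak in all 4, 156 (0.460%) in both Pool 3 libraries and neither control, and 108 (0.318%) in the reverse pattern. None of the 156 overlapped one of the 6 sites or lay within 100 kb of a site or of a target gene's start site. Their peaks were weak, with a median fold enrichment of 8.10 and a maximum of 12.4, compared with a median of 21.3 for regions with a peak in all 4. Within 1 kb of a start site were 42.9% of the 156, 33.3% of the 108 and 62.4% of all merged regions. The strongest of the 156, chr20:62481959-62482568 (12.7 and 12.1), was 10283 bp from ABHD16B and had a peak in all 6 other p300 libraries. The next, chr11:68714258-68714529 (9.70 and 14.7), was 9050 bp from IGHMBP2, a helicase gene, and chr18:21064768-21065258 (10.3 and 13.7) was 5797 bp from RIOK3, which encodes a kinase. The nearest protein-coding genes of the other 7 of the 10 strongest were CSNK1D, ATG13, ADIG, CRIP2, ARFGAP1, L3MBTL2 and SCML1, among them CSNK1D, a casein kinase, and ATG13, a subunit of the complex that starts autophagy. Each of these 10 regions had a peak in 7 to 16 of the other 16 RNAPII libraries. In the reverse pattern the highest 5 lay nearest to CDKN1A, HSPD1, AJUBA, WTIP and IQCN, of which CDKN1A encodes an inhibitor of cyclin-dependent kinases and HSPD1 a mitochondrial chaperone.

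The RNAPII regions with peaks in both Pool 3 and neither control library were not limited to Pool 3 gRNAs. With p300, a peak was present in 91.7% and 37.2% of the 156 in replicates 1 and 2 of Pool 1, in 96.8% and 21.2% in those of Pool 2 and in 75.6% and 96.2% in those of Adjacent. In the dCas9-VP16(10x) libraries, 77.6% and 71.2% had a peak with IL1RN gRNAs and 33.3% and 25.6% with Pool 3 gRNAs. The VP16 peak lists were longer with IL1RN gRNAs (35592 and 33212 peaks) than with Pool 3 gRNAs (22628 and 20545), and the 108 regions of the reverse pattern also had fewer peaks with Pool 3 gRNAs (36.1% and 26.9%, against 64.8% and 61.1%). Of the 156, 20 had a peak in both VP16 Pool 3 libraries, and none had its only further peaks there. Only 1 region, chr19:13919699-13920003 (6.30 and 6.67, nearest gene ZSWIM4), singled out after its values were seen, had no peak in any of the other 16 RNAPII libraries. Sequences like a gRNA of the 6 sites, with at most 4 mismatches in the 19-base spacer followed by NGG, were looked for in the central 500 bp of each region. Such a sequence was present in 1 of the 156 regions (0.641%, chr20:62153681-62153909) and in 0.737% of all 33936, and none of the 156 had one with at most 3 mismatches.

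**Figure D4:**
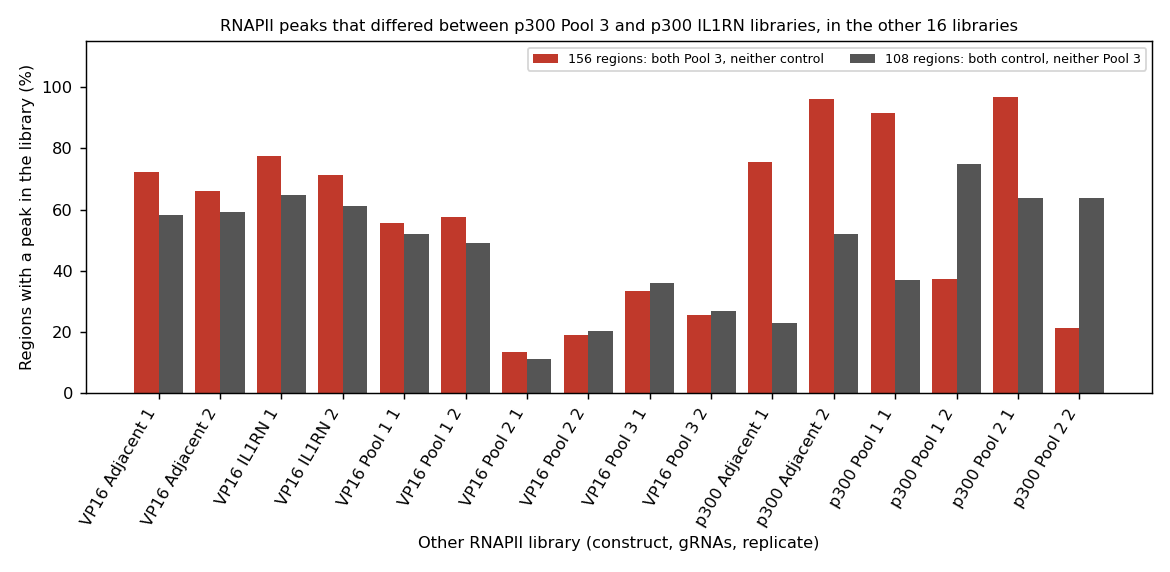
Percent of regions with a RNAPII peak in each of the other 16 libraries, for the 156 regions with a peak in both Pool 3 and neither control library (red) and the 108 of the reverse pattern (grey). The red bars run from 21.2% to 96.8% in p300 libraries with other gRNAs, and in the dCas9-VP16(10x) libraries both red and grey bars are higher with IL1RN than with Pool 3 gRNAs.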

How the data were processed

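ChIP-seq for H3K27ac and RNAPII was analysed from 1 table of 23 regions and from peak lists. The authors aligned reads to hg19 with Bowtie 1.1.2, removed duplicates, counted reads in 2-kb regions with bedtools and deposited a normalized signal, divided by total depth and by the average depth within the antibody's peaks. Per the labels, MACS2 2.1.0.20140616 was used. The peak lists that the authors deposited hold, for each library, fold enrichment (a ratio) and the -log10 of p-values and q-values. Within a library the values are multiples of 1 step (tolerance 0.02), read as reads, which give counting error only.

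A linear model (limma 3.58.1, R 4.3.3) used log2(signal + the smallest value above 0: 0.00415 for H3K27ac, 0.00395 for RNAPII), with 1 mean for each construct and pool over 20 libraries, and the contrast of p300 Pool 3 with p300 IL1RN was adjusted by the Benjamini-Hochberg method over 23 regions (threshold 0.05). A fold change on this scale understates that of low regions. Simulated data with known changes were used to test the fit. Permutation tests were two-sided. Of 20 replicate pairs, 17 differed beyond sampling noise (chi-square test), all of those compared here included. Deviations of same-numbered Pool 3 and IL1RN libraries had a correlation of 0.339 for H3K27ac, where it coincides with the number in the peak names, and 0.799 for RNAPII. For RNAPII the correlation was -0.615 between Pool 3 and Pool 1. The main fit used no pairing. Peaks were merged with at least 1 bp of overlap. Genes and distances were read from GENCODE on GRCh37 (protein-coding and long noncoding genes), and gRNAs were located there. Regions named are the sites and promoters, those that passed, and, per antibody, the 10 strongest merged regions with a peak in both Pool 3 and neither control library and the 5 strongest of the reverse pattern. The members and lists were chosen with earlier results of these data known.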

Additional observations from a re-analysis of the deposited data

How the results depend on the processing

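H3K27ac calls at the labelled sites depended on the fit, the RNAPII calls on 1 control library and the peak numbers on the lists. In H3K27ac, 2 regions were called increased with a pseudocount of 0.1 or with all other p300 libraries as control. With the replicate number as a block 1 was, and with the number in the peak names as a block 3 were. With p300 libraries alone and that last block (added after seeing the data), 7 were. These were MMP17-3, CISH-3, FHL2-2, HES2-1 and also FHL2-A, FHL2-3 and CISH-B, which are on neither Pool 3 list. All regions shared an SE of 0.56 in that fit, which gave the lowest adjusted p at both labelled sites. In each of the last 2 fits 1 region was called decreased, the IL1RN promoter. MMP17-3 then had log2 changes of 2.23 (pseudocount of 0.1), 2.45 (all other p300 libraries) and 2.40 (each block), with an adjusted p between 0.000264 and 0.0387, and CISH-3 had 2.34, 3.64 and 3.01. CISH-3 did not pass with the replicate block (adjusted p = 0.0757). The replicate block changed no other call, in RNAPII included. For RNAPII, however, a block shared by all groups could not account for the pairing of Pool 3 with IL1RN. Deviations of same-numbered libraries went opposite ways between Pool 3 and Pool 1 (correlation -0.615) and between IL1RN and Pool 1 (-0.575). Over all alternatives other than leaving out 1 library, some of which fitted only the p300 libraries or the 4 compared, adjusted p ran from 0.000264 to 0.532 at MMP17-3 and from 1.35e-05 to 0.542 at CISH-3. H3K27ac at HES2-2 turned to -0.11 after division by the median of non-targeted regions and to -0.12 with the other p300 libraries as control, permutation test included.

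Leaving out each library called no H3K27ac region, with log2 changes of 1.97 to 2.83 at MMP17-3, 1.77 to 4.26 at CISH-3, 0.39 to 4.53 at FHL2-2, 0.69 to 2.63 at HES2-1, -4.54 to -0.89 at the IL1RN promoter, -2.46 to -0.12 at the MMP17 promoter, -0.65 to 1.73 at FHL2-1, -0.37 to 1.18 at HES2-2 and -1.38 to 0.41 at the HES2 promoter. In RNAPII it called 0 to 3 regions increased and 0 to 1 that differ between constructs (FHL2-1, without VP16 Pool 3 replicate 1). RNAPII changes, lowest at MMP17-3 without control replicate 1, then ran from -0.045 to 1.497 at MMP17-3, -0.38 to 1.20 at CISH-3, -0.40 to 1.54 at FHL2-2, -0.42 to 0.11 at HES2-2, -0.56 to 2.45, -0.34 to 0.81, -0.32 to 1.06 and -0.14 to 1.75 at the promoters of MMP17, CISH, FHL2 and HES2, and -1.51 to 0.81 at the IL1RN promoter.

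H3K27ac regions with a peak in both Pool 3 and neither control library numbered 61 with equal list sizes, 55 with a reciprocal overlap of 50%, 0 with controls at least 1 kb away and 47 to 1746 when a library was left out (1746 without Pool 3 replicate 2, 96 without Pool 3 replicate 1, 58 and 47 without control replicates 2 and 1). The reverse pattern numbered 107, 196 and 826 to 15102 (without control replicate 2), with equal lists, the 50% overlap and a library left out. For RNAPII the numbers were 1166 with the 50% overlap, 70 with the 1 kb margin and 284 to 6514 without a library (6514 without control replicate 2, 2095 and 1663 without Pool 3 replicates 1 and 2), and for the reverse pattern 36 with equal lists, 315, 41 and 168 to 2761. With the 50% overlap, a peak of the other group that overlapped by less did not count. Those numbers can therefore include regions where the other group had a peak. The planned edgeR alternative was not run, since the table holds normalized signal. Groups of 2 libraries and reads of under 10 at some sites limit every comparison. The cause of these changes was not tested.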
